A study of Mus musculus with 14 samples.

Results

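The 10 genes described here encode parts of the Notch pathway in mouse kidney, namely the 4 receptors Notch1, Notch2, Notch3 and Notch4, the 3 ligands Dll4, Jag1 and Jag2, and the 3 target genes Hes1, Hey1 and Heyl. They were chosen by symbol, with earlier results of these data known, and each symbol matched a single ID among 56980. RNA from a whole kidney of 14 female CD-1 mice, a wild-type outbred stock, was sequenced at 18 weeks of age, with 1 library per mouse. Term nondiabetic (T-ND) mice, born naturally and raised by their own mothers, and term diabetic (T-D) mice, given streptozotocin (STZ) as young adults, numbered 4 each. Preterm nondiabetic (PT-ND) and preterm diabetic (PT-D) mice numbered 3 each. STZ is toxic to pancreatic beta cells and raises blood glucose. Preterm pups were delivered by Caesarean section shortly before term and fostered, and the foster mothers received acepromazine, so birth, delivery, fostering and this sedative cannot be told apart. STZ was repeated in most PT-D mice of the study but not in T-D mice, and the sources used here do not tell which mice these were. Too few PT-D mice had a single round to fill the group. At least 1 of the 3 PT-D libraries thus came from a mouse given STZ again, and this cannot be told apart from preterm birth. All 14 mice had received cationic ferritin before the kidneys were taken.

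Notch receptors are transmembrane proteins that are activated by ligands on a neighbouring cell. Ligand binding exposes the receptor to an ADAM protease and then to gamma-secretase, which frees the intracellular domain. This domain enters the nucleus, joins the DNA-binding protein RBPJ and a Mastermind coactivator, and switches on target genes, many of which encode repressors of the Hes and Hey families. In the kidney the pathway patterns the nephron during development and guides vessel growth. In the adult organ Notch1 and Notch4 are known from endothelial cells, Notch3 from vascular smooth muscle and mesangial cells, and Notch2 and Jag1 also from epithelial cells.

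Between 16697246 and 28673176 reads per library were counted on genes. Counts are given below as normalized counts, scaled by edgeR's TMM factors to the mean library. Marker genes of the proximal tubule, the thick ascending limb, the distal convoluted tubule, the collecting duct and podocytes were present in every library, as the kidney label calls for. T-D replicate 4 stood apart, with a count for 19589 genes against 20312 to 22818 in the other 13 libraries. Its 11 endothelial markers summed to 5254 normalized counts against 9369 to 10141 in the other T-D libraries. Since it was also the lowest library of T-D for 8 of the members, the log2 fold changes of the members in comparisons with T-D are given with and without it. In bulk tissue, fewer cells of a type and less RNA per cell cannot be told apart.

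Binding of RBPJ is known at the motif TGGGAA, so that this motif was looked for in the 250 bases upstream of each member's start site (GRCm39, GENCODE release M39), on both strands. The sequence of the target gene Hes1 is shown because it was the member with more than 1 copy, with each copy in capitals. Hes1 is on the plus strand (chr16:29883877-29884126) and had 2 copies on its own strand, 49 and 35 bases upstream of the start.
Hes1: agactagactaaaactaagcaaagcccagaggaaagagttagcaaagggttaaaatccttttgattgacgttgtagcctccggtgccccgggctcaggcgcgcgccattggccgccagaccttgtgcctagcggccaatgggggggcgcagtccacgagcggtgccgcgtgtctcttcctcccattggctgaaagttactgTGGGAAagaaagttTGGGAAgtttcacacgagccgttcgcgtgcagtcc
The window of Heyl and those of the 7 receptors and ligands held no copy. The motif was found in 22.8% of the 21631 protein-coding promoters searched, and 3.07% held more than 1 copy. A match is a description of the letters and does not show binding in these kidneys.

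The study also measured Notch1 by qRT-PCR, which was not analysed here. Its primers are shown to mark the part of the transcript that was amplified.
Forward: tacgaatgtgcctgtgaacc
Reverse: atgccatcctcacaagtgc
The forward primer matched exon 12 (chr2:26367903-26367922) and the reverse primer exon 13 (chr2:26367076-26367094) of the 34 exons of the main Notch1 transcript, on GRCm39. The product of 107 bases covers positions 2248 to 2354 of 9488, in the part that encodes the EGF-like repeats of the extracellular domain. The counts below cover all exons.

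Levels of different genes were compared per length, as normalized CPM per kilobase of exon. On this scale Hes1, which encodes a basic helix-loop-helix repressor, was the highest member, with a mean level of 9.84 ± 2.38 (SD, n = 14), and lay above the next member in all 14 libraries. Notch2 was at 2.25 ± 0.481 and Jag1 at 2.22 ± 0.566. These neighbours did not differ beyond their spread, since Notch2 was above Jag1 in 7 of 14 libraries. Notch4 followed at a level of 1.77 ± 0.902, Dll4 at 1.31 ± 0.544 and Notch3 at 1.10 ± 0.538. Jag1 was above Notch4 in 9 libraries, Notch4 above Dll4 in 8, and Dll4 above Notch3 in 9, so the order of these was not fixed. Notch1 was at 0.937 ± 0.445, below Notch3 in 12 of 14 libraries, and Jag2 at 0.680 ± 0.347. Taking the longest transcript in place of all exons moved the level of Notch1 to 1.41. Heyl was at 0.649 ± 0.162 and differed little from Jag2, which was higher in 9 libraries. Hey1, at 0.179 ± 0.0876, was the lowest member in all 14.

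Notch1 (ENSMUSG00000026923.16, chromosome 2 from 26347915 to 26406675) is a receptor with a broad role in cell fate and in vessels. Its normalized counts were 195, 163, 274 and 217 in T-ND replicates 1 to 4 and 277, 303, 206 and 72.1 in T-D replicates 1 to 4. They were 266, 178 and 192 in PT-ND and 513, 425 and 496 in PT-D. The 3 PT-D libraries lay above each of the other 11, and the other 3 groups overlapped. Reads of Notch1 share their locus with the long noncoding genes 0610009E02Rik and Gm13568 on the opposite strand, and unstranded counts cannot separate overlapping parts.

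Notch4 (ENSMUSG00000015468.15, chromosome 17 from 34783220 to 34807477), a receptor known mainly from endothelium, had the same arrangement of libraries. The normalized counts were 226, 202, 315 and 293 in T-ND and 335, 279, 321 and 81.1 in T-D. In PT-ND they were 288, 197 and 139.6, and in PT-D 596, 581 and 574. The PT-D libraries were close to each other and far above the highest of the others, 335 in T-D replicate 1.

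Notch3 (ENSMUSG00000038146.9, chromosome 17 from 32339794 to 32385893), a receptor of mural cells, had 102, 133, 246 and 167 normalized counts in T-ND and 231, 211, 119 and 50.2 in T-D. In PT-ND it had 187, 175 and 134, and in PT-D 415, 303 and 325. Every PT-D library was again above the other 11, but T-ND and T-D each spread widely. The long noncoding gene Gm17276 overlaps Notch3 on the opposite strand.

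Notch2 (ENSMUSG00000027878.12, chromosome 3 from 97920800 to 98057677), the receptor needed for proximal nephron segments during development, differed from the other receptors. Its normalized counts were 525, 539.8, 587 and 569.7 in T-ND, 545, 485, 390.2 and 358 in T-D, 349, 524 and 450.0 in PT-ND, and 449, 658 and 737 in PT-D. PT-D overlapped every other group, with replicate 1 lying below all of T-ND.

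Jag1 (ENSMUSG00000027276.8, chromosome 2 from 136923373 to 136958693), a ligand of epithelium and vessel walls, had 328, 311, 318 and 281 normalized counts in T-ND and 169, 264, 207 and 167 in T-D. It had 270.1, 217 and 187 in PT-ND and 360.3, 306 and 365 in PT-D. The T-ND and PT-D libraries overlapped with each other and were above all of T-D and PT-ND. Jag2 (ENSMUSG00000002799.7, chromosome 12 from 112871421 to 112893437), a second ligand of the Jagged family, had 118, 119, 90.1 and 107 normalized counts in T-ND, 111, 52.4, 82.3 and 23.2 in T-D, 63.6, 43.0 and 43.8 in PT-ND, and 177, 160.2 and 175 in PT-D. For Jag2 the PT-D libraries were above the other 11 and the PT-ND libraries below all of T-ND.

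Dll4 (ENSMUSG00000027314.7, chromosome 2 from 119156170 to 119166443), a ligand of the Delta family that restrains vessel sprouting, had 109, 126, 157 and 132 normalized counts in T-ND. In T-D they were 48.7, 96.3, 93.7 and 19.3, in PT-ND 42.8, 119 and 95.8, and in PT-D 159.6, 157 and 105. All T-D libraries lay below all T-ND and all PT-D libraries, while PT-D and T-ND overlapped. Dll4 shares its locus with Gm14207 on the opposite strand.

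Hes1 (ENSMUSG00000022528.9, chromosome 16 from 29882134 to 29886643) was the member with the opposite arrangement. Its normalized counts were 725, 749, 797 and 887 in T-ND, 674, 585, 492 and 582 in T-D, 748, 862 and 906 in PT-ND, and 513, 412 and 484 in PT-D. Every library with STZ, term or preterm, was below every library without it, and T-D and PT-D overlapped.

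The hairy-related repressors Hey1 (ENSMUSG00000040289.9, chromosome 3 from 8726956 to 8732385) and Heyl (ENSMUSG00000032744.5, chromosome 4 from 123127349 to 123143682), known as Notch targets in vessels, had fewer reads. Hey1 ranged from 19.2 to 30.1 normalized counts in T-ND, 2.57 to 18.1 in T-D, 8.34 to 18.1 in PT-ND and 18.1 to 26.4 in PT-D. With 2 reads in its lowest library, Hey1 was near the limit of what this depth can show. Heyl ranged from 57.0 to 82.2, 38.1 to 86.5, 57.7 to 78.2 and 78.4 to 95.2 in the same order. The T-D libraries of Hey1 were below all of T-ND, and Heyl overlapped between most groups.

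**Figure D1:**
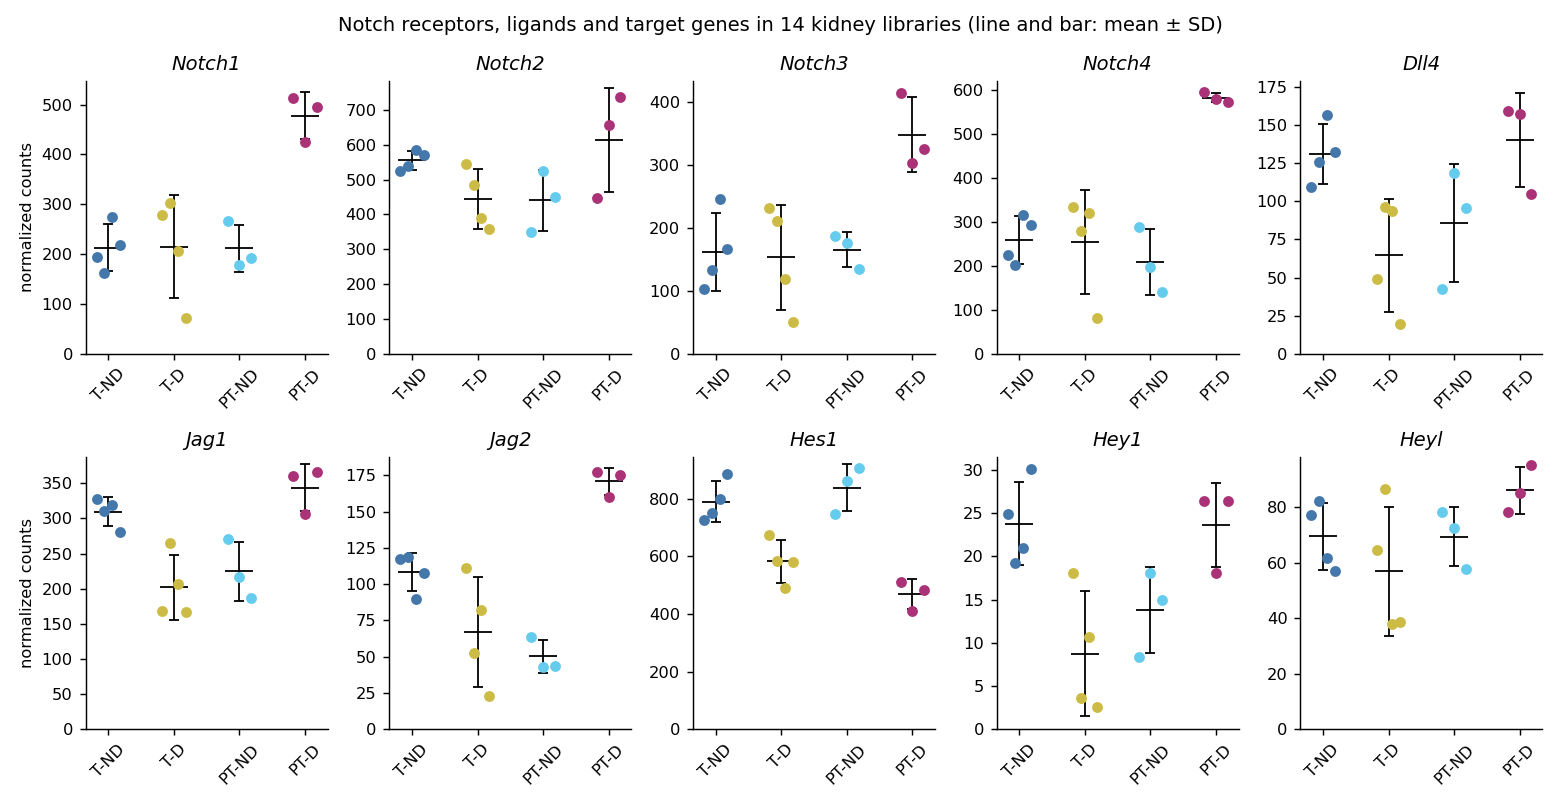
Normalized counts (vertical axes, starting at 0) of the 10 members, 1 point per library, in the term groups (4 libraries each) and the preterm groups (3 each), with the group mean as a line and the SD as an error bar. Notch1, Notch3, Notch4 and Jag2 are highest in the 3 PT-D libraries, whereas Hes1 is low in both diabetic groups, with means of 583 in T-D and 469 in PT-D.

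The dual exposure to preterm birth and STZ was addressed by PT-D against T-ND. Differentially expressed genes (DEGs) had a Benjamini-Hochberg adjusted p under 0.05 in edgeR's quasi-likelihood test over all genes and a log2 fold change (log2FC) beyond 1 in either direction. Of the 10 members, 2 receptors were DEGs and higher in PT-D, where 0.995% of the 22310 genes tested were. Notch1 rose from 212 ± 47.1 to 478 ± 46.8 normalized counts (log2FC 1.17, standard error (SE) 0.18, adjusted p = 0.0231 from edgeR). Notch4 rose from 259 ± 53.9 to 584 ± 10.9 (log2FC 1.16, SE 0.17, adjusted p = 0.0203). Notch3, at 162 ± 61.9 and 348 ± 59.2 normalized counts, had a log2FC of 1.09 (SE 0.27) and missed the threshold with an adjusted p of 0.0587 from edgeR. DESeq2, the test named in the study's methods, made DEGs of all 3 receptors, against 2.58% of the genes tested that were higher DEGs by DESeq2.

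Of the 3 ligands, Jag2 was the one whose groups did not overlap between PT-D and T-ND, with a log2FC of 0.65 (adjusted p = 0.0809 from edgeR). With Notch1, Notch3 and Notch4 it made 4 members with all PT-D above all T-ND libraries, as were 12% of the genes tested. Dll4 and Jag1 had log2FC values of 0.09 and 0.15, with adjusted p-values of 0.839 and 0.546 from edgeR. Hes1 fell from 789 ± 71.6 to 469 ± 52.1 normalized counts, a log2FC of −0.76 (SE 0.13, adjusted p = 0.0279 from edgeR), which did not reach the fold threshold. It was the 1 member lower at the adjusted p alone, beside 1.15% of the genes tested. An unadjusted p under 0.05 was found for 5 members, beside 24.3% of the genes tested. The median log2FC was 0.22 over the 10 members and 0.03 over all genes tested.

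Single libraries decided these calls, and both receptors stayed DEGs in 3 of the 7 fits that left out 1. Both were lost without T-ND replicate 1 or 4 or PT-D replicate 2 or 3, with adjusted p-values up to 0.0836 for Notch1 and 0.0692 for Notch4. Without T-ND replicate 3, the highest T-ND library in these receptors, Notch3 was a DEG as well (log2FC 1.36, adjusted p = 0.0111 from edgeR).

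Preterm birth among diabetic mice was addressed by PT-D against T-D. No member was a DEG by edgeR, where 0.135% of the 22294 genes tested were higher DEGs, and 8 of the 10 members had an unadjusted p under 0.05, beside 22.3% of the genes tested. The log2FC was 1.15 for Notch1 (SE 0.35, adjusted p = 0.103 from edgeR), 1.19 for Notch3 (SE 0.39, adjusted p = 0.118) and 1.19 for Notch4 (SE 0.35, adjusted p = 0.0975). Jag2 had 1.33 (SE 0.40, adjusted p = 0.102), Jag1 0.77 (adjusted p = 0.0901) and Dll4 1.11 (adjusted p = 0.172). Notch2, at 0.46, was the receptor with the smallest log2FC (adjusted p = 0.219).

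DESeq2 made 4 members DEGs in this comparison, against 1.53% of the genes tested. These were Notch1 (adjusted p = 0.0321 from DESeq2, and 0.00976 to 0.299 over the alternatives), Notch3 (0.0420, and 0.0164 to 0.299), Notch4 (0.0259, and 0.00654 to 0.279) and Jag2 (0.0236, and 0.0194 to 0.298). In 6 members, these 4 with Dll4 and Jag1, all PT-D libraries were above all T-D libraries, as in 12.4% of the genes tested. The targets did not follow as one. Hey1 had a log2FC of 1.39 (SE 0.63), Heyl one of 0.60 (SE 0.35) and Hes1 one of −0.32 (SE 0.17), with adjusted p-values of 0.218, 0.334 and 0.2997 from edgeR.

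T-D replicate 4 widened the spread of T-D in the receptors. Without it the log2FC of PT-D against T-D was 0.87 for Notch1 (SE 0.18, adjusted p = 0.04996 from edgeR), 0.90 for Notch3 (SE 0.25, adjusted p = 0.0842) and 0.90 for Notch4 (SE 0.14, adjusted p = 0.0272). Jag2 was then at 1.05 (adjusted p = 0.0796), Jag1 at 0.69, Dll4 at 0.81 and Notch2 at 0.37. Among the targets, Hey1 was at 1.11, Heyl at 0.46 and Hes1 at −0.32. The differences of the receptors and ligands were thus smaller, and no member was a DEG with any 1 library left out.

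STZ in preterm mice was addressed by PT-D against PT-ND, the comparison with the most DEGs among the members by edgeR. The 3 receptors Notch1, Notch3 and Notch4 and the ligand Jag2 were DEGs and higher in PT-D, 4 of 10 members beside 2.96% of the 22303 genes tested. Jag2 had the largest difference, from 50.1 ± 11.7 normalized counts (SD, n = 3) to 171 ± 9.16 (log2FC 1.76, SE 0.27, adjusted p = 0.00519 from edgeR). Notch4 rose from 208 ± 74.8 to 584 ± 10.9 (log2FC 1.48, SE 0.23, adjusted p = 0.00559). Notch1 rose from 212 ± 47.5 to 478 ± 46.8 (log2FC 1.17, SE 0.20, adjusted p = 0.00678). Notch3 rose from 165 ± 27.8 to 348 ± 59.2 (log2FC 1.07, SE 0.21, adjusted p = 0.0112).

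Hes1 went the other way, from 838 ± 81.5 normalized counts in PT-ND to 469 ± 52.1 in PT-D (log2FC −0.84, SE 0.15, adjusted p = 0.00923 from edgeR). It was the 1 member lower at the adjusted p alone, beside 5.78% of the genes tested. Jag1 had a log2FC of 0.61 (adjusted p = 0.0611 from edgeR), Dll4 of 0.71 (0.224), Notch2 of 0.48 (0.164), Hey1 of 0.77 (0.351) and Heyl of 0.31 (0.513). All PT-D libraries were above all PT-ND libraries in 6 members, the 4 DEGs with Jag1 and Heyl, as in 18.7% of the genes tested, and 7 members had an unadjusted p under 0.05, beside 29.1%. Notch1, Notch4 and Jag2 stayed DEGs in all 6 fits that left out 1 library. Notch3 stayed one in 4 of 6, with a log2FC of 0.95 without PT-ND replicate 3 and 0.93 without PT-D replicate 1. The comparisons of PT-D share their 3 PT-D libraries and are therefore not independent of each other.

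STZ in term mice, T-D against T-ND, gave no DEG among the members, where 0.0673% of the 22275 genes tested were DEGs in either direction. DESeq2 gave none either, and 4 members had an unadjusted p under 0.05, beside 11.8% of the genes tested. The log2FC values of Notch1, Notch3 and Notch4 were 0.0034, −0.10 and −0.04, with SE of 0.36, 0.42 and 0.35. In Dll4, Jag1, Hes1 and Hey1 all T-D libraries were below all T-ND libraries, as in 3.76% of the genes tested. Their log2FC values were −1.03 (adjusted p = 0.362 from edgeR), −0.63 (0.248), −0.45 (0.282) and −1.41 (0.374). With T-D replicate 4 left out, the log2FC was 0.30 for Notch1, 0.20 for Notch3 and 0.26 for Notch4, so that Notch3 and Notch4 were above 0 without this library and below it with it. Dll4 was then at −0.72, Jag1 at −0.54, Hes1 at −0.44 and Hey1 at −1.12, with adjusted p-values of 0.297 to 0.453 from edgeR. The remaining members, Jag2, Notch2 and Heyl, were at −0.41, −0.24 and −0.16, against −0.69, −0.34 and −0.31 with it.

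Preterm birth without STZ, PT-ND against T-ND, gave no DEG among the members by edgeR, where 0.0809% of the 22254 genes tested were. An unadjusted p under 0.05 was found for 2 members, beside 10.7% of the genes tested. In Notch2, Jag1, Jag2 and Hey1 all PT-ND libraries were below all T-ND libraries, as in 5.54% of the genes tested. The log2FC was −0.0026 for Notch1 (SE 0.23), 0.03 for Notch3 (0.29) and −0.31 for Notch4 (0.26). Jag2 had the largest difference, −1.11 (SE 0.26, adjusted p = 0.204 from edgeR). DESeq2 made Jag2 a DEG (adjusted p = 0.0104, and 0.0104 to 0.526 over the alternatives), the 1 member beside 0.247% of the genes tested that were lower DEGs.

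**Figure D2:**
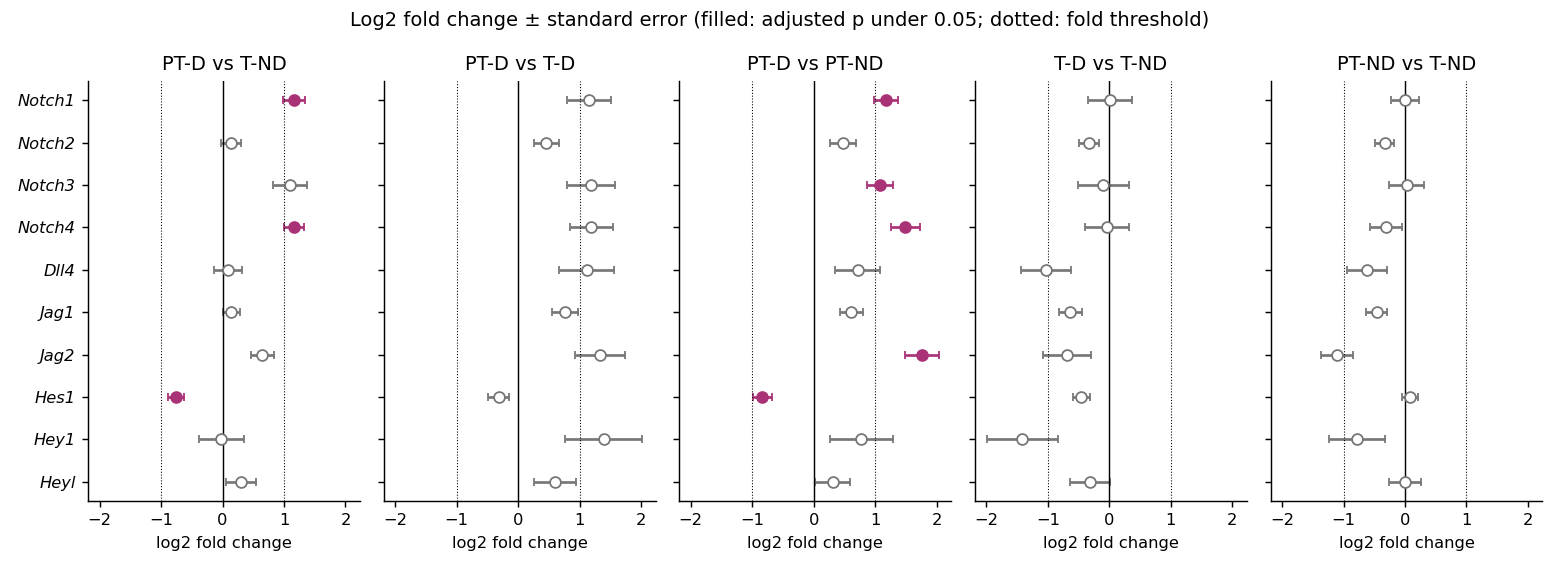
Log2 fold changes (horizontal axes) of the 10 members with their standard errors in 5 comparisons, filled where the adjusted p from edgeR was under 0.05, with dotted lines at the fold threshold of 1 in either direction. Notch1 and Notch4 lie right of the threshold in all 3 comparisons of PT-D (1.15 to 1.48) and near 0 or below in T-D vs T-ND and PT-ND vs T-ND, and Hes1 lies left of 0 in each of the 3.

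Whether STZ made a different difference in preterm than in term mice was tested by the interaction over all 14 libraries. The ligands Jag1 and Jag2 were DEGs, 2 of 10 members beside 1.98% of the 22339 genes tested that were higher DEGs. The log2FC of Jag1 with STZ was −0.63 in term mice and 0.61 in preterm mice, and neither passed the adjusted p. These changes differed by 1.23 on the log2 scale (SE 0.27, adjusted p = 0.0252 from edgeR). For Jag2 they differed by 2.44 (SE 0.52, adjusted p = 0.0244). The interaction was 1.51 for Notch4 (SE 0.50, adjusted p = 0.0748), 1.16 for Notch1 (0.48, adjusted p = 0.147) and 1.16 for Notch3 (0.55, adjusted p = 0.207). A different response of these receptors to STZ in preterm and term mice was thus not shown by edgeR. For Hes1 the interaction was −0.40 (SE 0.20, adjusted p = 0.235), so that its lower level with STZ was not shown to differ between the birth groups. In the interaction 7 members had an unadjusted p under 0.05, beside 24.5% of the genes tested.

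Neither Jag1 nor Jag2 passed without PT-ND replicate 2, PT-ND replicate 3 or PT-D replicate 3, with adjusted p-values up to 0.0752 and 0.0717 from edgeR. Without T-D replicate 4, Jag1 and Jag2 were at 1.15 and 2.17 (adjusted p = 0.0291 and 0.0139), Notch1 and Notch3 at 0.87 each and Hes1 at −0.40, and Notch4 was a DEG of the interaction too (1.22, adjusted p = 0.0427). Without T-D replicate 1 so was Hey1 (2.74, adjusted p = 0.0365). DESeq2 made 5 members DEGs of the interaction, Notch4, Dll4 and Hey1 beside the Jagged ligands, against 2.94% of the genes tested that were higher DEGs by DESeq2. Over both STZ states together, no member was a DEG between 6 preterm and 8 term libraries by edgeR or DESeq2, with 0.0269% of all genes as DEGs, and 1 member, Notch1, had an unadjusted p under 0.05 (log2FC 0.60, adjusted p = 0.655 from edgeR), beside 7.61% of the genes tested. Its log2FC was 0.41 with T-D replicate 4 left out.

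Markers of 8 kidney cell types were set beside the members. The 11 endothelial markers summed to 9334 to 10020.3 normalized counts in T-ND, 5254 to 10141 in T-D, 7339 to 12263 in PT-ND and 11416 to 15049.6 in PT-D. None of them was near 0, the lowest being Nos3 with group means of 57.1 to 151. At an adjusted p under 0.05 from edgeR, 5 of the 11 were higher in PT-D against PT-ND, beside 7.14% of the genes tested, and 3 against T-ND, beside 1.61%. The 6 mural markers (pericyte, mesangial and smooth muscle genes) summed to 3315 to 3742 in PT-D and to 1556 to 2495 in the other 11 libraries. The lowest mural marker, Tagln, had mean levels of 3.72 to 5.73 normalized counts in the groups. The 6 podocyte markers summed to 10549 to 13789 in PT-D and to 5166 to 7877 in T-ND, with T-D and PT-ND reaching 10813 and 10725. The 7 leukocyte markers summed to 729 to 1686 in PT-D and 1407 to 2002 in T-ND. Higher at an adjusted p under 0.05 in PT-D against T-ND were 1 mural, 5 podocyte and 1 leukocyte marker, and against PT-ND 3, 4 and 2. The 3 markers of the thick ascending limb had lower mean sums in both diabetic groups, as Hes1 had lower means. The collecting duct and leukocyte lists also had lower mean sums in both. The thick ascending limb sums were 26734 to 51687 in T-D and 19121 to 45570 in PT-D. They were 51578 to 77190 in T-ND and 40983 to 57739 in PT-ND. PT-D lay below all of T-ND, while the other ranges of diabetic and nondiabetic groups overlapped. Of these 3 markers, 1 was lower in PT-D against T-ND and 0 against PT-ND. The proximal and distal convoluted tubule markers gave no call in these comparisons, and of the 6 collecting duct markers 1 was higher and 1 lower in PT-D against PT-ND. In PT-D against T-D, edgeR called 0 of the 49 markers of all lists, and 22 had an unadjusted p under 0.05, beside 22.3% of the genes tested. DESeq2 called 14 at an adjusted p under 0.05. Of all 22294 genes tested it called 915 as higher and 1347 as lower. The part of these cells in the results was not tested.

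The log2 ratio of each member to the mean of the endothelial markers in the same library gave the values side by side. The mean ratio was higher in PT-D than in T-D by 0.57 for Notch1, 0.63 for Notch3, 0.62 for Notch4, 0.79 for Jag2, 0.59 for Dll4 and 1.06 for Hey1. It differed by 0.02 for Jag1 and by −0.09 for Heyl, and by −0.31 for Notch2 and −1.08 for Hes1. Without T-D replicate 4, an alternative added after seeing the data, the differences were 0.32 for Notch1, 0.38 for Notch3, 0.35 for Notch4, 0.56 for Jag2, 0.30 for Dll4 and 0.82 for Hey1, and 0.15 for Jag1, −0.04 for Heyl, −0.20 for Notch2 and −0.87 for Hes1. Against T-ND the difference was 0.65 for Notch1, 0.62 for Notch3 and 0.65 for Notch4, and with Pecam1, Cdh5 and Tie1 alone as markers it was 0.27, 0.24 and 0.27. Jag2 was at 0.12 there and at −0.27 with these 3 markers. Dll4 and Hey1, at −0.46 and −0.56, were lower relative to the endothelial markers than in T-ND. So were Notch2 (−0.43), Jag1 (−0.39), Heyl (−0.22) and Hes1 (−1.30). Against PT-ND the differences were 0.52 for Notch1, 0.40 for Notch3, 0.87 for Notch4 and 1.12 for Jag2. They were 0.14 for Dll4, 0.15 for Hey1, −0.05 for Jag1, −0.21 for Notch2, −0.36 for Heyl and −1.51 for Hes1. The difference from T-ND thus depended on the markers taken.

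**Figure D3:**
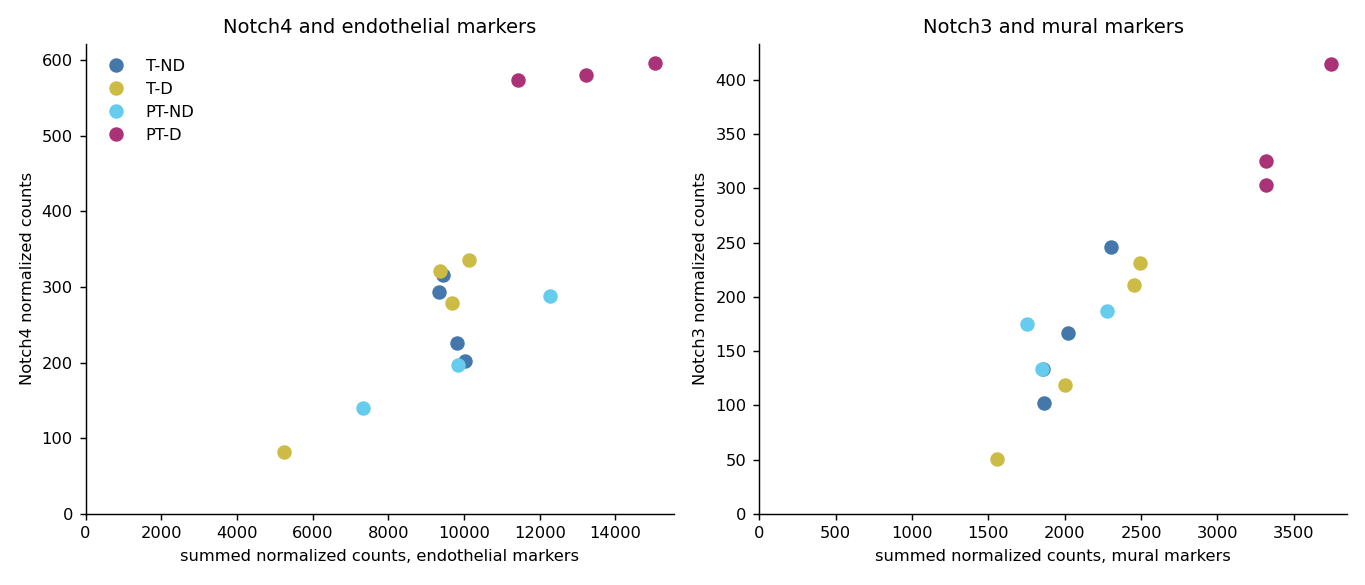
Normalized counts of Notch4 against the sum of 11 endothelial markers (left) and of Notch3 against the sum of 6 mural markers (right), 1 point per library, coloured by group, all axes starting at 0. The PT-D libraries lie highest for both receptors, T-D replicate 4 lies lowest, and 1 PT-ND library reaches an endothelial sum of 12263, within the PT-D range, with Notch4 at 288.

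Transcript length also went with the differences. The paper reports that RNA integrity varied between samples and did not differ between groups, and its part in this trend was not tested. Among genes with at least 50 normalized counts, the median log2FC of PT-D against T-D was −0.55 for genes whose longest transcript is under 2 kb, −0.18 from 2 to 4 kb, 0.09 from 4 to 6 kb and 0.30 for longer ones. PT-D against PT-ND gave −0.49, −0.17, 0.08 and 0.32, and PT-D against T-ND −0.31, −0.13, 0.02 and 0.22. The longest transcripts of the 4 receptors are 6.63 to 10.6 kb, and that of Hes1 is 2.78 kb. With a correction for length and GC content, chosen after seeing the data, the log2FC of PT-D against T-ND was 0.85 for Notch1 (adjusted p = 0.0303 from edgeR) and 0.91 for Notch4 (0.0197). Both kept an adjusted p under the threshold and fell short of the fold threshold. Over all alternatives of this comparison the adjusted p reached 0.0874 for Notch1 and 0.0748 for Notch4. Against PT-ND, Notch4 (1.27) and Jag2 (1.66) stayed DEGs, Notch1 (0.83, adjusted p = 0.0208) and Notch3 (0.78, adjusted p = 0.0386) passed on the adjusted p alone, and Hes1 was at −0.69 (adjusted p = 0.0174). The adjusted p reached 0.0518 for Notch1 and 0.109 for Notch3 over the alternatives, and 0.0447 for Hes1, the latter without PT-ND replicate 2. Notch2, the longest receptor, had 0.07 against T-D with the correction.

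**Figure D4:**
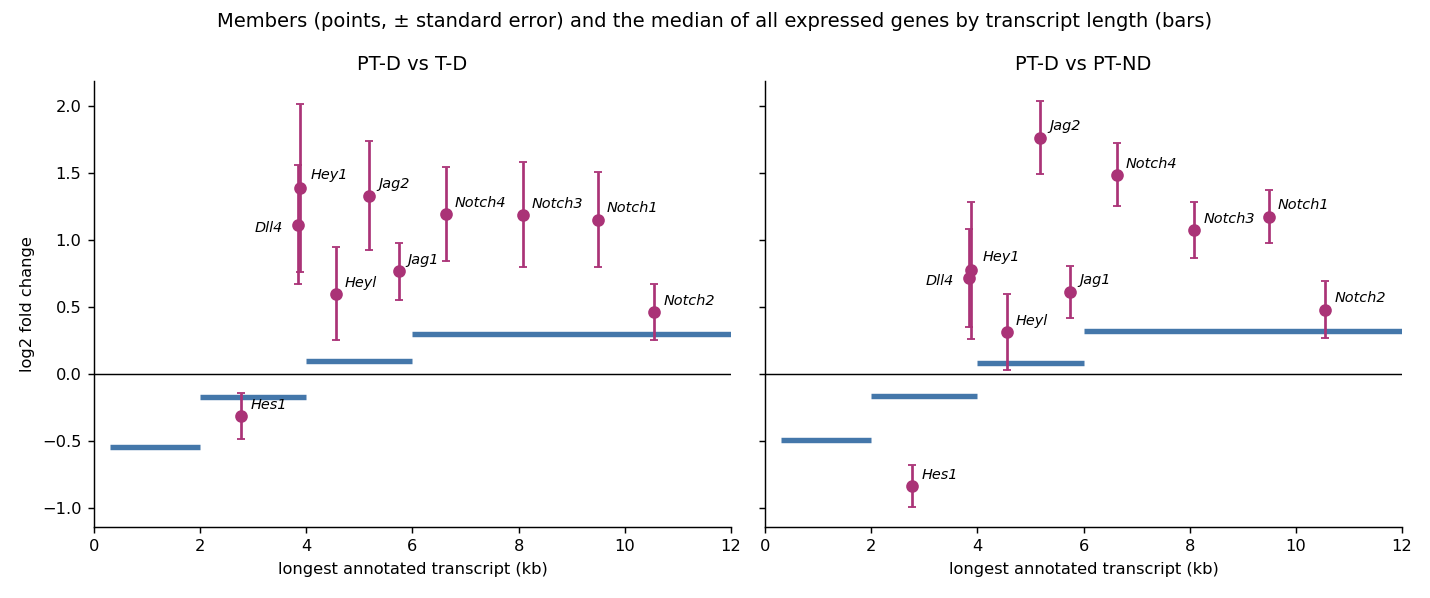
Log2 fold change (vertical axis) of the 10 members, as points with standard errors, by the length of the longest annotated transcript in kb (horizontal axis), in PT-D vs T-D (left) and PT-D vs PT-ND (right), with the median of all genes with at least 50 normalized counts in 4 length classes as bars. The bars rise with length from −0.55 to 0.30 and from −0.49 to 0.32, Notch1, Notch3, Notch4 and Jag2 lie above them, and Notch2 lies close to its bar.

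The other genes of the pathway, a list of 58, were examined by role. Of these, 56 were tested, and Hes5 and Dner had too few counts. In PT-D against PT-ND, 14 were higher and 3 lower at an adjusted p under 0.05 from edgeR, and 5 of the 14 were DEGs, beside 7.14%, 5.78% and 2.96% of all genes tested. In PT-D against T-ND 1 gene passed, beside 1.61%, and in PT-D against T-D 1, beside 0.135%. In T-D against T-ND and PT-ND against T-ND 0 passed by edgeR, with 4 and 6 at an unadjusted p under 0.05, beside 11.8% and 10.7%. In the interaction, 6 were higher and 2 lower, beside 2.82% and 3.41%, of which 4 and 1 were DEGs, beside 1.98% and 2.46%. In fits without 1 library, 4 of the 5 DEGs of PT-D against PT-ND stayed DEGs in every fit, namely Spen, Neurl1b, Dtx3l and Egfl7, and so did Neurl1b and Egfl7 of the 5 in the interaction. Neurl1b and Egfl7 also stayed DEGs of both under every other alternative. The 12 genes that passed on the adjusted p alone against PT-ND were less stable, with 1 of them past the threshold in every fit with a library left out.

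Among the other ligands and ligand-like genes, Dll1 was the highest and did not pass in PT-D against T-D (log2FC 0.22, adjusted p = 0.747, and 0.04 without T-D replicate 4). Dlk2, a relative of the Delta ligands, was a DEG in PT-D against PT-ND, from 12.7 ± 7.12 to 43.8 ± 8.35 normalized counts (log2FC 1.78, adjusted p = 0.0410), and lost this call whichever of the 6 libraries was left out. The Fringe gene Lfng, whose enzyme adds sugar to the receptors and alters their choice of ligand, was at 51.4 ± 13.8 in T-D and 134 ± 54.2 in PT-D and was a DEG of the interaction (2.01, adjusted p = 0.0325). It stayed one in 9 of the 14 fits that left out 1 library, with an adjusted p up to 0.0962, and in 6 of 8 other alternatives. Rfng, the highest glycosyltransferase, had a log2FC of 0.06 in PT-D against T-D, and −0.02 without T-D replicate 4.

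The proteases that release the intracellular domain did not move as a group. In PT-D against PT-ND, Adam17, a sheddase, was higher (log2FC 0.72, adjusted p = 0.0106 from edgeR), and Aph1a and Aph1c, subunits of gamma-secretase, were lower (−0.63 and −0.58, adjusted p = 0.0161 and 0.0411). Psenen, another subunit, had the largest difference among the proteases in PT-D against T-D with all libraries (−0.77, adjusted p = 0.126). Without T-D replicate 4, Psenen had −0.48 and Aph1a −0.49. Furin, which cleaves the receptors on their way to the cell surface, had 0.09, and −0.07 without T-D replicate 4. Of the nuclear complex, the Mastermind coactivator Maml1 and the acetyltransferases Ep300 and Crebbp were higher in PT-D than in PT-ND (0.85, 0.79 and 0.76, adjusted p = 0.0224, 0.0153 and 0.0116), and Maml1 was a DEG of the interaction (1.19, adjusted p = 0.0262, kept in 11 of 14 fits with a library left out). Kat2b was the highest of the complex, with 0.05 in PT-D against T-D and 0.11 without T-D replicate 4. Rbpj itself was at 263 ± 55.3 normalized counts in PT-D and 281 ± 121 in PT-ND.

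The corepressors Ncor1 and Spen were higher in PT-D than in PT-ND, with log2FC values of 0.59 and 1.32 (adjusted p = 0.0222 and 0.00561 from edgeR), the last a DEG. Ncor1 passed the adjusted p in 2 of 6 fits with a library left out and in 7 of 9 other alternatives. Spen stayed a DEG in 6 of these 9. Ctbp1, the highest corepressor, had −0.45 in PT-D against T-D (adjusted p = 0.162, and −0.35 without T-D replicate 4). Of the ubiquitin ligases, Neurl1b, which acts on ligands, was a DEG in PT-D against T-D (148 ± 14.9 to 335 ± 31.4 normalized counts, log2FC 1.17, adjusted p = 0.0377, and 1.25 and 0.0210 without T-D replicate 4), in PT-D against PT-ND (1.36, adjusted p = 0.00942) and in the interaction (1.86, adjusted p = 0.0157). The call against T-D was lost without any 1 of the other 6 libraries, with an adjusted p up to 0.145. Dtx4 of the Deltex family was a DEG in PT-D against T-ND (1.07, adjusted p = 0.0284, kept in 2 of 7 fits with a library left out) and higher than in PT-ND by 0.87. Dtx3l was a DEG in PT-D against PT-ND (1.88, adjusted p = 0.00463), with a mean of 895 ± 919 in T-ND showing how far its libraries lay apart. Mib1 and Fbxw7 passed on the adjusted p alone there, with 0.58 and 0.63. With a library left out, Mib1 passed in 2 and Fbxw7 in 0 of the 6 fits. Itch, the highest of this role, had 0.34 in PT-D against T-D, and 0.18 without T-D replicate 4.

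Of the other target genes, Hes6 was the highest. It fell in PT-D against PT-ND from 1550.0 ± 187 to 826 ± 219 normalized counts (log2FC −0.91, adjusted p = 0.0163 from edgeR) and was a DEG of the interaction (−1.23, adjusted p = 0.0199, kept in 12 of 14 fits with a library left out). Hey2 had a log2FC of 1.30 in PT-D against T-D (adjusted p = 0.222, and 1.34 without T-D replicate 4). Egfl7, a secreted endothelial protein that binds Notch receptors and is also on the endothelial list, was at 277 ± 24.3 in PT-ND and 802 ± 421 in PT-D (log2FC 1.53, adjusted p = 0.0112) and a DEG of the interaction (2.16, adjusted p = 0.0148).

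**Figure D5:**
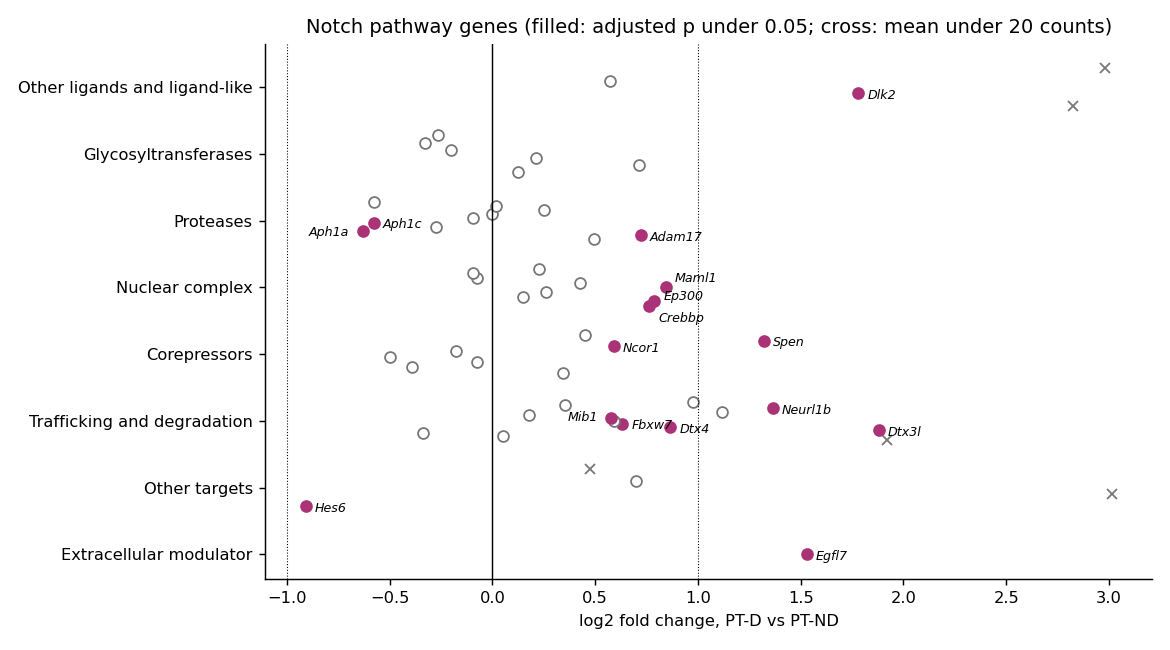
Log2 fold change of PT-D vs PT-ND (horizontal axis) for the tested pathway genes other than the members, with 1 gene not shown, 1 point per gene, in rows by role, named and filled where the adjusted p from edgeR was under 0.05 and as crosses where the mean was under 20 normalized counts. Filled points lie right of 0 except for Aph1a, Aph1c and Hes6, and 5 of them (Dlk2, Spen, Neurl1b, Dtx3l and Egfl7) lie beyond the dotted fold threshold at 1.

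The genes whose log2 values ran most alike with a member over the 14 libraries were sought among 11635 protein-coding genes, as a description in which group differences, depth and shared libraries all enter. Notch1 ran with Rbm28, Map4 and Itpr3 (r of 0.976 to 0.970), Notch2 with Bmf, Pip4k2b and Patj (0.912 to 0.887), Notch3 with Lamb2 and Notch1 (0.955 and 0.951) and Notch4 with Gapvd1, Nedd4 and Adgrf5 (0.973 to 0.968). Jag1 ran with Fbxo38, Zfp146 and Rbm41 (0.903 to 0.895), Jag2 with Srsf1, Arhgef15 and Ttc14 (0.953 to 0.945) and Dll4 with Lrrc45, Six5 and Emilin2 (0.895 to 0.880). Hes1 ran with Shd, Accs and Pacsin3 (0.887 to 0.885), Hey1 with Colgalt2, Nsd1 and Ephb3 (0.938 to 0.906) and Heyl with Kctd10, Slc7a1 and Ddx10 (0.924 to 0.893). Among the members themselves, r was 0.951 between Notch1 and Notch3, 0.946 between Notch1 and Notch4 and 0.892 between Notch3 and Notch4. It was 0.857 between Notch4 and Jag2 and −0.537 between Notch4 and Hes1.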

How the data were processed

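Bulk RNA sequencing of 14 kidneys was analysed in the 4 groups of the sample labels. The authors trimmed the reads, aligned them to GRCm39 with STAR and deposited raw counts of reads per gene (GENCODE release M36), both unstranded and split by strand. Analyses used the former, since the strands took 49.9% to 50.1% of stranded reads each. Reads on overlapping genes were left uncounted by this counting, which made up 6.86% to 8.09% of uniquely mapped reads and can lower members with an overlapping neighbour. Release M39 was at hand for symbols, lengths and positions, and 56236 of 56980 IDs matched without their version. Depth was 16697246 to 28673176 counts per library (median 18765582), and intervals from counting alone were not used, as the spread between mice was larger.

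A gene needed more than 10 counts in all, as 22339 had. Fits of 2 groups held the libraries of those groups alone, with edgeR 4.0.16 under R 4.3.3 (TMM, quasi-likelihood test, Benjamini-Hochberg adjustment, two-sided). The interaction and the additive comparison of preterm with term used all libraries. The levels and ratios are descriptions without a test. The members, the pathway list and the marker lists were chosen with earlier results of these data known. The text names all members, each pathway gene with an adjusted p under 0.05 and, per role, the gene with the highest mean and the one with the largest change between PT-D and T-D. A few genes and 1 promoter sequence that these rules would have named are not reported here, although the counts and sums over their lists include them. Sequences were read from GRCm39 and from the study's primer list. Alternatives were DESeq2 1.42.0, RLE factors, other filters on low counts, a joint fit, the library-name suffix as covariate, a replicate block, the adjusted p alone, each library left out and, chosen after seeing the data, a length and GC correction. On simulated data with 200 changed genes in PT-D against T-D, 100% were recovered with 6 false calls among 21920 genes. Recovery of differences with the size and spread found for the members was not tested.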

Additional observations from a re-analysis of the deposited data

Results flagged for a closer look

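The difference between the responses of preterm and term kidneys to STZ passed the test of the interaction for both Jagged ligands. For Jag1 it was 1.23 on the log2 scale (edgeR adjusted p = 0.0252), from a log2 fold change of −0.63 in term mice and 0.61 in preterm mice. For Jag2 it was 2.44 (adjusted p = 0.0244), from −0.69 in term mice and 1.76 in preterm mice. Both were DEGs in 11 of the 14 fits that left out 1 library, with values up to 0.0752 and 0.0717. No library of a member stood apart from its group of 4 by Dixon's test in the 20 groups examined, where chance gives about 1 in 20. With 4 libraries this test has little power, and the same libraries recur in these groups. It therefore does not show that no library was an outlier, and T-D replicate 4 was the lowest of T-D for 8 members.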

How the results depend on the processing

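The directions of the 4 DEGs in PT-D against PT-ND and of the 2 in PT-D against T-ND were kept in every alternative run, while the number of member DEGs was not. In PT-D against T-ND the 2 higher DEGs became 0 in the joint fit, 0 with a replicate block, 0 with the length and GC correction and 0 with that correction and a block, and 0 to 3 with 1 library left out. Notch3 joined them as a DEG with DESeq2 and without a filter on low counts. In PT-D against T-D the 0 higher DEGs became 4 with DESeq2, 4 without a filter on low counts and 1 in the joint fit. In PT-D against PT-ND the 4 became 2 in the joint fit, 2 with the length and GC correction and 2 with it and a block, and 3 to 4 with 1 library left out. In the interaction the 2 became 5 with DESeq2, 4 without a filter and 1 with the correction and a block, and 0 to 3 with 1 library left out. The adjusted p alone added 1 lower member, Hes1, in PT-D against T-ND and 1 against PT-ND, and DESeq2 1 lower member in PT-ND against T-ND. The longest transcript as length moved the level of Notch1 to 1.41. The causes of these changes were not tested.

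Replicate numbers gave no sign of pairing, since same-numbered libraries had a median correlation of deviations of −0.109 against 0.0133 for others. The paper states that litter mates served as controls. Litter was not modelled here, and the replicate numbers cannot show it. Log2 fold changes that changed sign were all near 0 and none passed a threshold. With the length and GC correction, alone or with the block, these were Notch2 in PT-D against T-ND (−0.19, −0.23), Hey1 there (0.024, 0.15), Hes1 in PT-ND against T-ND (−0.069, −0.047) and Notch2 in preterm against term (−0.11, −0.12), with Notch4 in T-D against T-ND (0.016) and Notch1 in PT-ND against T-ND (0.012) for the correction alone and Notch1 in T-D against T-ND (−0.027) and Jag2 in preterm against term (−0.021) for both. With the replicate block, Hey1 was 0.10 in PT-D against T-ND, Notch1 −0.13 in T-D against T-ND and Notch1 0.019 in PT-ND against T-ND. With the suffix covariate, Heyl was 0.061 in PT-ND against T-ND. With 1 library left out, PT-D against T-ND ranged from −0.012 to 0.31 for Notch2, −0.016 to 0.27 for Dll4 and −0.11 to 0.14 for Hey1. T-D against T-ND ranged from −0.20 to 0.30 for Notch1, −0.38 to 0.20 for Notch3 and −0.20 to 0.26 for Notch4. PT-ND against T-ND ranged from −0.23 to 0.13 for Notch1, −0.14 to 0.29 for Notch3 and −0.12 to 0.11 for Heyl, and preterm against term from −0.049 to 0.18 for Notch2 and −0.049 to 0.45 for Jag2. Hey1, at 2 to 33 reads per library, is limited by depth.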
